A study of Homo sapiens with 6 samples.

Results

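The 40 genes described here belong to the response of the cell to stress in the endoplasmic reticulum (ER) and to shortage of amino acids. They were taken by gene symbol from a table of 23569 genes, and all 40 were found in it. The genes form 2 branches. The ER chaperone branch holds 22 genes, which are 14 folding factors, 4 genes of ER-associated degradation (ERAD), and the sensors ATF6, ERN1 and EIF2AK3 together with XBP1. The ATF4 branch holds 18 genes, which are 4 transcription factors, 6 stress effectors, 6 enzymes of amino acid and one-carbon metabolism and 2 amino acid transporter subunits. Expression was measured by RNA-seq in TFK1 cells, a line from an extrahepatic bile duct carcinoma. The study compared cells carrying a negative control lentivirus (oeNC) with cells made to overexpress STUB1 from the same kind of vector (oeSTUB1), and 3 libraries were made of each. Both groups went through the same infection and puromycin selection and had no further treatment. STUB1, also called CHIP, is an E3 ubiquitin ligase that binds HSC70 and HSP90 and marks their unfolded clients for degradation. As far as the sources tell, each group is 1 selected cell population, so STUB1 and the population cannot be told apart. The labels do not say that the replicates are separate cultures, and p-values then measure only the spread between these libraries, which may be technical.

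Unfolded proteins in the ER are sensed by IRE1 (gene ERN1), PERK (EIF2AK3) and ATF6. ATF6 and spliced XBP1 switch on chaperone and ERAD genes, among them HSPA5, which encodes BiP. PERK and other kinases that respond to amino acid shortage, heme shortage or viral RNA phosphorylate eIF2 alpha, which lowers general translation and raises translation of ATF4. ATF4 then drives genes for amino acid import and synthesis and stress genes such as DDIT3 (CHOP), TRIB3 and CHAC1. ATF4 itself is controlled largely at translation and XBP1 by splicing, and neither step is measured by a gene-level RNA value.

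The branches are known for different promoter elements, so the promoters in the RefSeq-derived table (GRCh38.p14, 250 bases before to 50 after each start) were searched on both strands. Of the 40 genes, 37 had a promoter there. The ER stress response element, read as CCAAT and CCACG with 9 open bases between them, was present in 7 of the 21 chaperone-branch genes with a promoter, in 0 of 16 ATF4-branch genes in 0.0769% of the 35116 promoters overall and in 0.15% of the 11980 tested genes that had a promoter. The letters TGATGNAA, a C/EBP-ATF response element, were present in 5 of 16 ATF4-branch genes, in 1 of 21 chaperone-branch genes (HERPUD1) in 3.62% of all promoters and in 2.85% of those tested genes. The shorter CCACG, which is also the end of the first motif and the reverse complement of part of TGACGTGG, was present in 18 of 21 (85.7%) and in 10 of 16 genes (62.5%), against 55.8% of those tested genes and 38.1% of all promoters, so that the ATF4-branch share was near the background. TGACGTGG, a site read by XBP1 and ATF6, was present in 1 gene, HYOU1, in 1.11% of those tested genes and in 0.729% of all promoters. These matches describe the letters of the windows and are not measured binding. The 8 ER stress response elements are shown to let their spacers be compared, each 5′ to 3′ on the strand that reads CCAAT first, with the fixed letters in capitals.
HSPA5 (chr9:125241391-125241409): CCAATcggcggcctCCACG
HSP90B1, distal (chr12:103930216-103930234): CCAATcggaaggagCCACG
HSP90B1, proximal (chr12:103930321-103930339): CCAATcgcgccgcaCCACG
CALR (chr19:12938384-12938402): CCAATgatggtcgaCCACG
CANX (chr5:179698778-179698796): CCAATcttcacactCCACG
PDIA6 (chr2:10812853-10812871): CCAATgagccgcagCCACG
CRELD2 (chr22:49918554-49918572): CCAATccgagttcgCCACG
XBP1 (chr22:28800603-28800621): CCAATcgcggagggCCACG
The fixed letters lay within the 250 bases before the start in each case, from position -225 in CALR to position -34 in XBP1. The 7 genes had log2 fold changes from -0.07 (PDIA6) to 0.26 (HSPA5) with a median of 0.15. The 14 chaperone-branch genes without the motif had a median of 0.03. Those 14 include all ERAD genes and the sensors ATF6, ERN1 and EIF2AK3, whereas the genes with the motif are folding genes and XBP1. The folding genes without the motif ranged from -0.06 (PDIA4) to 0.31 (SDF2L1), so these medians do not separate motif from role.

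The 220 bases before the start are shown for 5 genes that the values below turn on, the chaperones HSPA5 and HSP90B1 and the ATF4-branch genes CHAC1, ASNS and ATF3. Each is written 5′ to 3′ on the strand of its gene, and capitals mark the fixed letters of the ER stress response element in the first 2 and of TGATGNAA in the other 3, reverse complements included. HSPA5 lies on the minus strand (chr9:125241344-125241563), as does ASNS (chr7:97872409-97872628), while HSP90B1 (chr12:103930190-103930409), CHAC1 (chr15:40953251-40953470) and ATF3 (chr1:212565187-212565406) lie on the plus strand. ASNS and ATF3 each have 2 starts in the table, and the 1 that holds the motif is shown.
HSPA5: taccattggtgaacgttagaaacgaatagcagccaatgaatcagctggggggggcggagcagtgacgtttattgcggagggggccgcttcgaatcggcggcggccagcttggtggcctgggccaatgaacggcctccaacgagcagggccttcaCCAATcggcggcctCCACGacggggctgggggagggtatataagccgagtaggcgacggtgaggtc
HSP90B1: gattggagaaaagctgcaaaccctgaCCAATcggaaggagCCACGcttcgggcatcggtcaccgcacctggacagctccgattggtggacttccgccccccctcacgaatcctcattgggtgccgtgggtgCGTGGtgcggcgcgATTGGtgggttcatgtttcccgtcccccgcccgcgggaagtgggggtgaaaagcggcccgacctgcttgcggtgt
CHAC1: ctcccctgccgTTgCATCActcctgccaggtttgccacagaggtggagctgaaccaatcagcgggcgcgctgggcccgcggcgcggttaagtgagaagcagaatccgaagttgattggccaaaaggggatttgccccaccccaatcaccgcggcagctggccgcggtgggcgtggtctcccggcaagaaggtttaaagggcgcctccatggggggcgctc
ASNS: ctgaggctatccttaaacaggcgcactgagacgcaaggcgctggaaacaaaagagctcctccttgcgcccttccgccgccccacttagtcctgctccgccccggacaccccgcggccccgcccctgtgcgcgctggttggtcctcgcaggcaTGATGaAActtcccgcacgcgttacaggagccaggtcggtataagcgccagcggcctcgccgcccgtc
ATF3: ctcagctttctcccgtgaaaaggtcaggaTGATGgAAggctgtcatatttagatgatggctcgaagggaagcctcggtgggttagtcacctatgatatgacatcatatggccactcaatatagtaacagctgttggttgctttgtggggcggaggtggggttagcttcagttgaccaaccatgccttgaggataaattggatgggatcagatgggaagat
TGATGNAA was also found at positions -42 to -35 of CEBPG and, in the transcribed part, from 38 bases after the SLC3A2 start. The 5 ATF4-branch genes with the motif had log2 fold changes from -1.26 (ATF3) to -0.02 (CEBPG) with a median of -0.33. The 11 ATF4-branch genes without it ranged from -0.66 to 0.52 with a median of -0.24, and 2 of the 11 were above 0.

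The authors deposited expression as FPKM, the number of fragments scaled by gene length and by the total of the library. Whole fragments were recovered from these values, with library totals between 33106564 and 36744521. STUB1 was at 32.3 ± 1.23 FPKM in oeNC (SD, n = 3) and 66.1 ± 7.7 FPKM in oeSTUB1 (SD, n = 3), a log2 fold change of 1.03 (SE 0.10, adjusted p = 0.000642) by limma, and the fragments of the introduced and the endogenous sequence are counted together. Of the 8 bile duct markers, 1 was higher and 5 were lower in oeSTUB1, together 75% against 13.6% of all genes tested. KRT7, KRT8 and KRT18 were high in every library, whereas KRT19 was at 0.374 to 3.41 FPKM. Of the 32 markers of other cells, 11 passed the filter on low values. The hepatocyte genes ALB and APOA2, the fibroblast genes COL1A2 and DCN and the endothelial genes VWF and CDH5 were at 0 to 0.0617 FPKM. Exceptions were CPS1 (93.5 to 99.2 FPKM in oeNC, 32.6 to 51.6 FPKM in oeSTUB1), CD68 (19.1 to 27.7 FPKM), EGFL7 (6.92 to 11.1 FPKM) and CD14 (4.33 to 6.09 FPKM), and the part of such markers in the results was not tested. A pair of libraries stood apart. In oeSTUB1 replicate 2 the difference from the other oeSTUB1 libraries fell with gene length, with a Spearman correlation of -0.56 across 15353 genes, which are not independent replicates. In oeNC replicate 3 the ATF4 branch was high. Results that rest on either library are also given without it. In bulk RNA, fewer cells of a type and less RNA per cell cannot be told apart.

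STUB1 overexpression was compared with the control for all 40 genes. In cells overexpressing STUB1, VLDLR was higher, ATF3 and PHGDH were lower, and the other 37 genes did not pass the test. A gene was called at an adjusted p-value under 0.05 (limma on log2(FPKM + 0.1), Benjamini-Hochberg over all genes). The 3 genes are 7.5% of the 40, against 13.6% of the 15353 genes tested, 7.01% higher and 6.59% lower. All 3 belong to the ATF4 branch, where they are 16.7% of 18 genes, and 0 of 22 chaperone-branch genes were called. In the chaperone branch 3 genes had an unadjusted p under 0.05 (13.6%, against 29.7% of all genes), and limma-voom on the fragments also called 0. With a log2 fold change over 1 as a further condition ATF3 alone was called, a lower gene, against 5.2% of all genes (2.79% higher and 2.4% lower). On the log2(FPKM + 0.1) scale, the added 0.1 shrinks the fold change of weakly expressed genes.

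**Figure D1:**
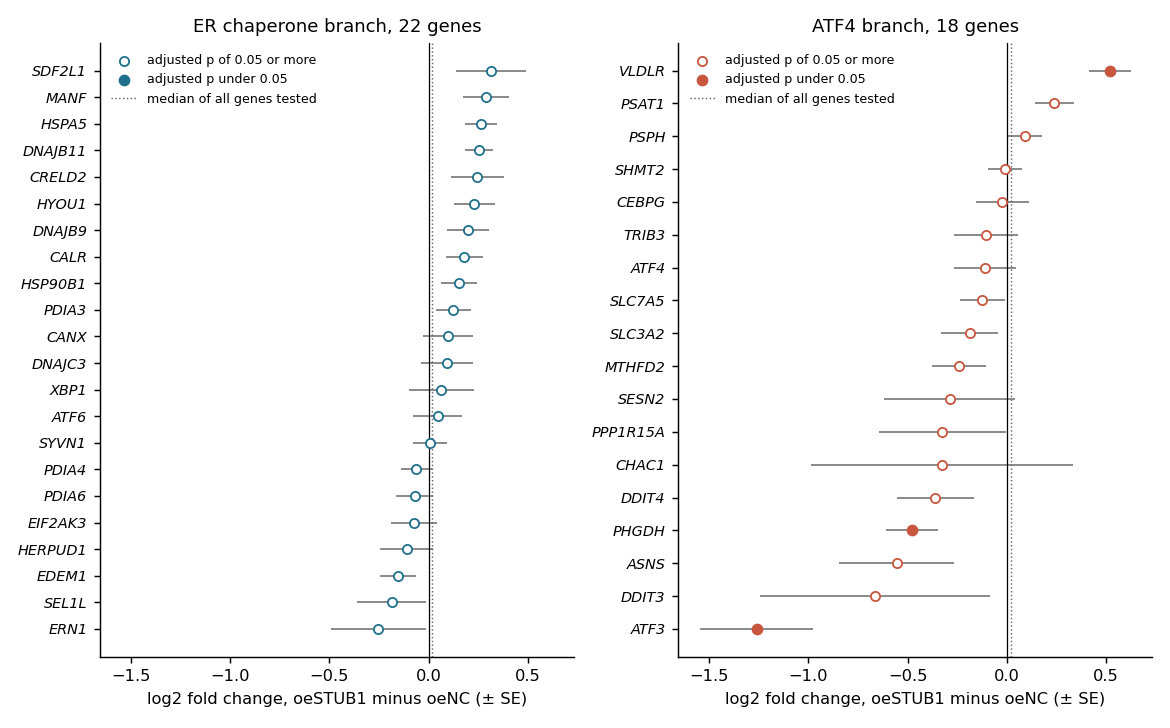
Log2 fold change of oeSTUB1 against oeNC on the log2(FPKM + 0.1) scale for the 22 genes of the ER chaperone branch (left) and the 18 genes of the ATF4 branch (right), with bars of 1 standard error from limma, 3 libraries a group. Filled points passed an adjusted p of 0.05 (VLDLR, PHGDH and ATF3), and the dotted line is the median of all genes tested, 0.02.

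With all 6 libraries, the medians of the branches lay on different sides of 0. Log2 fold changes were above 0 in 15 of 22 chaperone-branch genes with a median of 0.10, and below 0 in 15 of 18 ATF4-branch genes with a median of -0.22. The median of all genes tested was 0.02, with 8083 of 15353 above 0. Within the chaperone branch the median was 0.19 for folding genes, -0.13 for ERAD genes and -0.01 for sensors and XBP1. Without oeSTUB1 replicate 3 the chaperone-branch median was -0.0064, and without oeNC replicate 3 the ATF4-branch median was 0.05. The chaperone branch had medians of -0.06, -0.06 and -0.0049 in oeNC and -0.01, 0.11 and 0.10 in oeSTUB1, each on the log2 scale against the mean of the 6 libraries. The ATF4 branch had medians of -0.07, -0.14 and 0.37 in oeNC and -0.15, 0.11 and -0.16 in oeSTUB1. In the ATF4 branch the highest median, in oeNC replicate 3, belonged to the control, and the groups overlapped. In the chaperone branch oeSTUB1 replicates 2 and 3 lay above the controls and oeSTUB1 replicate 1 overlapped with them. The SD of these medians within groups was 0.0517 for the chaperone branch and 0.222 for the ATF4 branch, so the difference of the ATF4 branch was no larger than the spread of its libraries.

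**Figure D2:**
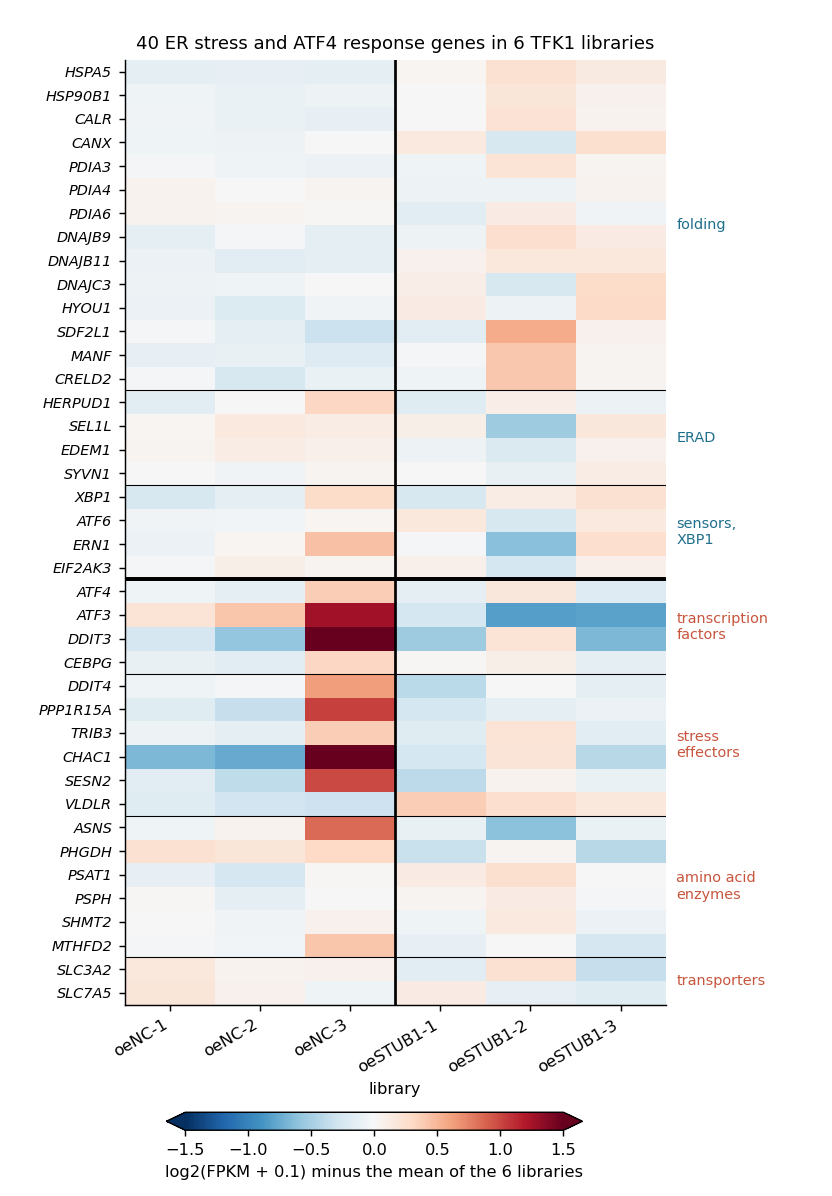
Heat map of the 40 genes (rows, in order of role) in the 6 libraries (columns), coloured by log2(FPKM + 0.1) minus the mean of the 6 libraries, with the colour scale ending at 1.5 in each direction. Red cells of the ATF4 branch collect in oeNC-3, where 12 of its 18 genes had their highest value, whereas 10 of the 14 folding genes had theirs in oeSTUB1-2. Over all genes tested, the highest library was oeNC-3 in 19.1% and oeSTUB1-2 in 30.4%. The latter was also the lowest library in 30.4% of all genes and in 9 of the 22 chaperone-branch genes.

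Among the folding factors, small positive differences were shared by most genes, and none passed the test. The level of 12 of 14 was above the control, with a median log2 fold change of 0.19. The 5 genes whose groups did not overlap were HSPA5, HSP90B1, CALR, DNAJB11 and MANF, all higher in oeSTUB1. They are 5 of the 14 folding genes. Over the whole chaperone branch they are 22.7%, near the 21.5% of all genes tested with oeSTUB1 above oeNC without overlap. HSPA5, the BiP chaperone that holds the 3 sensors inactive, had 154, 155 and 154 FPKM in oeNC and 174, 198 and 186 FPKM in oeSTUB1. Every oeSTUB1 library lay above every oeNC library, and the oeNC libraries were close to each other. The means were 155 ± 0.716 FPKM in oeNC (SD, n = 3) and 186 ± 12.4 FPKM in oeSTUB1 (SD, n = 3). Its log2 fold change was 0.26 (SE 0.08, adjusted p = 0.0712) by limma. Without oeSTUB1 replicate 2 the difference was 0.22 and passed (adjusted p = 0.0117), against a background of 26.8% of genes called in that fit. HSPA5 lies on chromosome 9, where the median log2 fold change of the 604 tested genes was 0.16, and the part of this shift in its value was not tested.

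DNAJB11, an HSPA5 cochaperone, had 41.1, 39.1 and 39.9 FPKM in oeNC and 45.6, 48.9 and 48.8 FPKM in oeSTUB1. The groups did not overlap, and oeSTUB1 replicate 2 did not stand apart. Its log2 fold change of 0.26 (SE 0.07, adjusted p = 0.0524) by limma had the lowest p-value of the branch. HSP90B1 (GRP94) was the most abundant of the 40 genes, with 487, 475 and 481 FPKM in oeNC and 504, 575 and 531 FPKM in oeSTUB1. The groups did not overlap, and the highest value was in oeSTUB1 replicate 2. The lectin chaperone CALR had 343, 331 and 327 FPKM in oeNC and 353, 414 and 369 FPKM in oeSTUB1, with oeSTUB1 replicate 2 again the highest. MANF, a secreted ER stress factor, had 54.8, 55 and 52.1 FPKM in oeNC and 58.9, 79.1 and 61.5 FPKM in oeSTUB1. The log2 fold changes of the last 3 were 0.15 (SE 0.09, adjusted p = 0.303), 0.18 (SE 0.09, adjusted p = 0.24) and 0.29 (SE 0.12, adjusted p = 0.146) by limma.

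The remaining folding genes overlapped between the groups. SDF2L1, part of an ER chaperone complex, had the largest fold change of the branch, 0.31 (SE 0.18, adjusted p = 0.281) by limma, from 16.5, 15.2 and 13.3 against 15, 24.7 and 17.5 FPKM. Its value in oeSTUB1 replicate 2 lay far above the other 5 libraries, which ranged from 13.3 to 17.5 FPKM. CRELD2 likewise had 6.79, 5.86 and 6.43 against 6.61, 9.16 and 7.1 FPKM, with 1 high library. The cochaperone DNAJB9, the HSP70-like HYOU1, the disulfide isomerase PDIA3, the lectin CANX and the cochaperone DNAJC3 had log2 fold changes of 0.20, 0.23, 0.12, 0.10 and 0.09. Over the 6 libraries DNAJB9 ranged over 7.61 to 10.1 FPKM, HYOU1 over 25 to 35.1 FPKM, PDIA3 over 110.5 to 135 FPKM, CANX over 212 to 294 FPKM and DNAJC3 over 7.54 to 10.8 FPKM. In CANX and DNAJC3 oeSTUB1 replicate 2 was the lowest library and the other oeSTUB1 libraries were the highest. The disulfide isomerases PDIA4 and PDIA6 had values below 0, -0.06 and -0.07, with ranges of 162 to 177 FPKM and 137 to 167 FPKM. PDIA6 lies on chromosome 2, where the median of the 1031 tested genes was -0.21. Adjusted p-values of these genes ranged from 0.186 to 0.682 by limma.

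**Figure D3:**
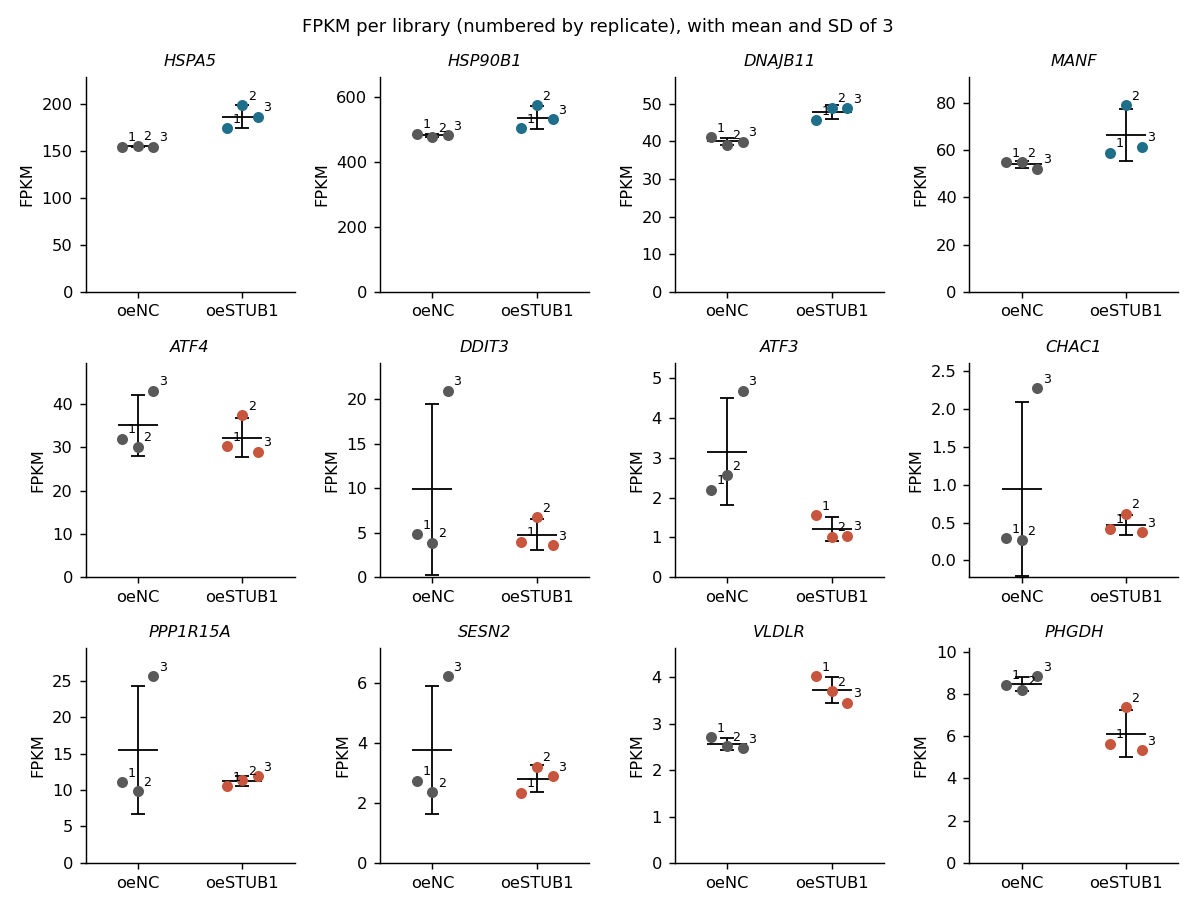
FPKM in each library (points, numbered by replicate), with the mean (horizontal line) and SD (bar) of 3 libraries, for 4 folding genes (first row) and 8 ATF4-branch genes. oeNC replicate 3 lies far above the other 5 libraries in DDIT3, CHAC1, PPP1R15A and SESN2, and the groups do not overlap in the 4 folding genes, ATF3, VLDLR and PHGDH. Over all genes tested, the groups did not overlap in 38.8%.

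The 4 ERAD genes did not pass the test, and 3 of 4 had log2 fold changes below 0. HERPUD1, a membrane component of the ERAD complex, had 15.7, 17.5 and 21.6 FPKM in oeNC and 15.3, 18.7 and 16.4 FPKM in oeSTUB1. The highest library was oeNC replicate 3, and the groups overlapped. SEL1L and SYVN1 form the ERAD ubiquitin ligase, and EDEM1 selects misfolded glycoproteins. SEL1L had 22.4, 24.2 and 23.6 against 23.2, 15.2 and 24.7 FPKM, with 1 low value in oeSTUB1 replicate 2. The log2 fold changes were -0.11 (SE 0.13, adjusted p = 0.622) for HERPUD1, -0.19 (SE 0.17, adjusted p = 0.516) for SEL1L, -0.15 (SE 0.09, adjusted p = 0.306) for EDEM1 and 0.01 (SE 0.09, adjusted p = 0.968) for SYVN1, by limma. EDEM1 ranged over 9.73 to 12.2 FPKM and SYVN1 over 11.2 to 13 FPKM, and SYVN1 differed by less than the spread of its libraries.

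The sensors and XBP1 did not pass the test either. XBP1, the factor that IRE1 activates by splicing, had 56.1, 60.2 and 80.3 FPKM in oeNC and 56.1, 71.5 and 77.3 FPKM in oeSTUB1. The groups overlapped over nearly their whole range. The log2 fold change of 0.06 (SE 0.16, adjusted p = 0.828) by limma turned negative without oeNC replicate 1 (-0.04) or oeSTUB1 replicate 3 (-0.03). ATF6, the sensor that is cut in the Golgi, had 7.89, 7.94 and 8.35 FPKM in oeNC and 9.16, 6.91 and 9.1 FPKM in oeSTUB1. In ATF6 oeSTUB1 replicate 2 was the lowest of all and the other oeSTUB1 libraries were the highest. ERN1, the IRE1 sensor, was the least expressed gene of the branch, with 1.91, 2.07 and 2.78 FPKM in oeNC and 2.01, 1.28 and 2.44 FPKM in oeSTUB1. In ERN1 the highest library was oeNC replicate 3 and the lowest oeSTUB1 replicate 2. EIF2AK3, the PERK kinase, had 5.64, 6.11 and 5.89 FPKM in oeNC and 6.05, 4.76 and 6.06 FPKM in oeSTUB1, with oeSTUB1 replicate 2 the lowest and the other 5 close together. The log2 fold changes of ATF6, ERN1 and EIF2AK3 were 0.05 (SE 0.12, adjusted p = 0.839), -0.25 (SE 0.24, adjusted p = 0.524) and -0.07 (SE 0.12, adjusted p = 0.722) by limma. EIF2AK3 was at 0.04 without oeSTUB1 replicate 2, and ATF6 was at -0.02 without oeSTUB1 replicate 1 and likewise without oeSTUB1 replicate 3.

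Gene length moved with these values. The lengths used for the FPKM ranged in the chaperone branch from 825 bases (SDF2L1) to 10897 bases (ERN1), with medians of 2854 bases for folding genes, 5476 for ERAD genes and 6403 for sensors and XBP1. Across the 22 genes, the Spearman correlation of length with the difference of oeSTUB1 replicate 2 from the other oeSTUB1 libraries was -0.80, and with the log2 fold change -0.64. The 18 ATF4-branch genes gave -0.09 and 0.23. These are descriptions across genes that share the same libraries. Short genes such as SDF2L1 (0.61) and MANF (0.39) lay above the other oeSTUB1 libraries on the log2 scale, and long genes such as SEL1L (-0.66) and ERN1 (-0.74) below. With each library corrected for length by lowess, the folding median was 0.14 and the ERAD median -0.12, and 2 of 22 genes (9.09%), HSPA5 and MANF, passed the test. This share was below the 21.6% of all genes called in that fit. Without oeSTUB1 replicate 2 the folding median was 0.12, and 6 genes were higher, HSPA5, CANX, DNAJB11, DNAJC3, HYOU1 and MANF. They are 27.3% of the branch, all in 1 direction. Of all 15353 genes tested, 26.8% were called in that fit in either direction, 2274 higher and 1838 lower. In each of these fits 12 of the 14 folding genes had log2 fold changes above 0.

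**Figure D4:**
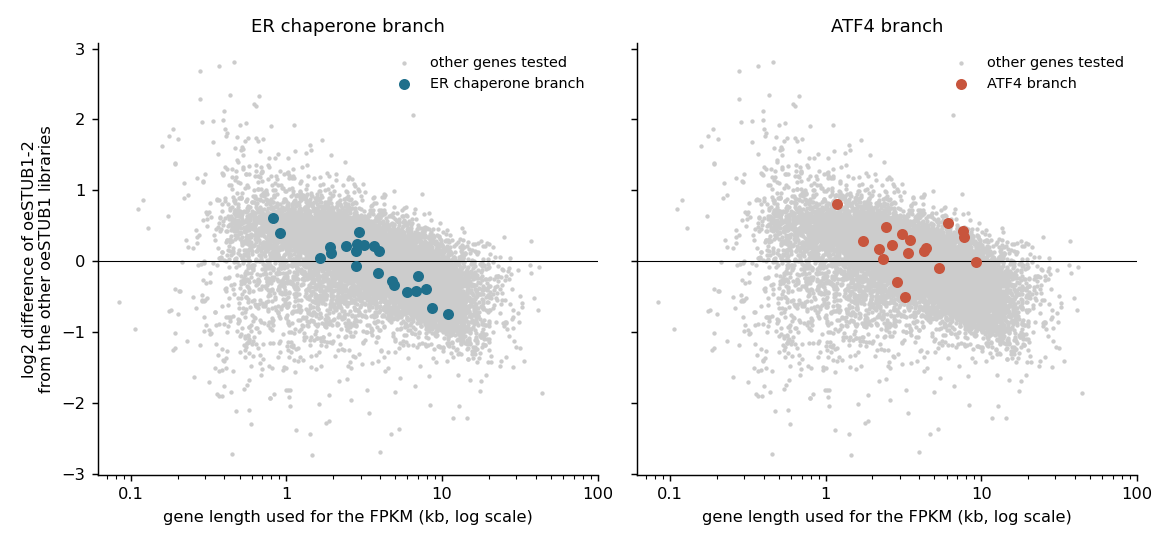
Difference of oeSTUB1-2 from the mean of the other oeSTUB1 libraries on the log2(FPKM + 0.1) scale (vertical axis) against the gene length used for the FPKM (horizontal axis, log scale), for the 22 chaperone-branch genes (left) and the 18 ATF4-branch genes (right) over all other genes tested (grey). The chaperone-branch points slope down with length (Spearman -0.80) and the ATF4-branch points do not (-0.09).

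In the ATF4 branch, the transcription factor ATF3 fell with STUB1. ATF3, a repressor induced by stress, had 2.2, 2.56 and 4.68 FPKM in oeNC and 1.56, 1.02 and 1.04 FPKM in oeSTUB1, or 219, 254 and 493 fragments in oeNC and 154, 97 and 102 in oeSTUB1. The groups did not overlap, oeNC replicate 3 was the highest and oeSTUB1 replicates 2 and 3 were close to each other. The means were 3.15 ± 1.34 FPKM in oeNC (SD, n = 3) and 1.21 ± 0.305 FPKM in oeSTUB1 (SD, n = 3), and the log2 fold change was -1.26 (SE 0.29, adjusted p = 0.0259) by limma. Without oeNC replicate 3 it was -0.94 with an adjusted p of 0.0516, which does not pass. The call was also lost without oeNC replicate 2 (0.0634) and without oeSTUB1 replicate 3 (0.0729), with log2 fold changes of -1.37 and -1.17.

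The factor ATF4 itself had 31.9, 30.1 and 43 FPKM in oeNC and 30.2, 37.4 and 29 FPKM in oeSTUB1. oeNC replicate 3 was the highest and oeSTUB1 replicate 2 followed, while the other 4 libraries lay between 29.0 and 31.9 FPKM. The log2 fold change of -0.11 (SE 0.15, adjusted p = 0.673) by limma was 0.05 without oeNC replicate 3. DDIT3, the proapoptotic factor CHOP, had 4.87, 3.87 and 20.9 FPKM in oeNC and 3.99, 6.74 and 3.63 FPKM in oeSTUB1. Its value in oeNC replicate 3 was 4.79 times the mean of the other oeNC libraries, and the rest of the groups overlapped. The log2 fold change was -0.66 (SE 0.58, adjusted p = 0.488) and, without this library, 0.08. CEBPG, a dimer partner of ATF4, had 18.2, 17.5 and 24.3 against 19.9, 20.8 and 17.8 FPKM and a log2 fold change of -0.02.

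Among the stress effectors VLDLR was higher with STUB1, and the other 5 genes had their highest value in oeNC replicate 3. VLDLR, a lipoprotein receptor gene induced through PERK and ATF4, had 2.71, 2.52 and 2.48 FPKM in oeNC and 4.03, 3.7 and 3.45 FPKM in oeSTUB1. The groups did not overlap and no library stood apart. The log2 fold change was 0.52 (SE 0.11, adjusted p = 0.0171) by limma, with adjusted p-values from 0.00947 to 0.0855 when single libraries were left out. The call was lost without oeNC replicate 1, 2 or 3 or oeSTUB1 replicate 1, with log2 fold changes from 0.46 to 0.56. VLDLR lies on chromosome 9 like HSPA5 and PSAT1. An antisense gene, VLDLR-AS1, is listed separately, and whether counting used strand is not given in the sources used here.

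CHAC1, a glutathione-degrading enzyme, had 0.294, 0.27 and 2.26 FPKM in oeNC and 0.42, 0.616 and 0.371 FPKM in oeSTUB1, or 62, 57 and 506 fragments in oeNC and 88, 124 and 77 in oeSTUB1. oeNC replicate 3 was 8.03 times the mean of the other oeNC libraries, which were themselves below every oeSTUB1 library. The log2 fold change was -0.33 (SE 0.66, adjusted p = 0.779) with all libraries and 0.55 (adjusted p = 0.255) without oeNC replicate 3, by limma. PPP1R15A (GADD34), which restarts translation by dephosphorylating eIF2 alpha, had 11.1, 9.86 and 25.6 FPKM in oeNC and 10.5, 11.4 and 11.9 FPKM in oeSTUB1. SESN2, an inhibitor of mTORC1 signalling, had 2.75, 2.36 and 6.24 FPKM in oeNC and 2.35, 3.22 and 2.9 FPKM in oeSTUB1. In both genes 5 libraries lay close together and oeNC replicate 3 was 2.45 times the mean of the other controls. DDIT4 (REDD1), another mTORC1 inhibitor, had 139, 145 and 225 against 110.1, 147 and 132 FPKM, and the pseudokinase TRIB3 had 13.8, 13.2 and 18.8 against 12.8, 16.8 and 12.9 FPKM. The log2 fold changes of PPP1R15A, SESN2, DDIT4 and TRIB3 were -0.32, -0.29, -0.36 and -0.10, with adjusted p-values from 0.259 to 0.711 by limma.

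The enzymes of serine and one-carbon metabolism did not share a direction. PHGDH, the first enzyme of serine synthesis, fell, with 8.42, 8.16 and 8.83 FPKM in oeNC and 5.64, 7.38 and 5.33 FPKM in oeSTUB1. The groups did not overlap, although oeSTUB1 replicate 2 came close to the control. The means were 8.47 ± 0.338 FPKM in oeNC (SD, n = 3) and 6.12 ± 1.1 FPKM in oeSTUB1 (SD, n = 3), with a log2 fold change of -0.48 (SE 0.13, adjusted p = 0.0482) by limma, just inside the threshold. The adjusted p ranged from 0.000969 to 0.157 when single libraries were left out, and the call was kept only without oeSTUB1 replicate 2. PSAT1, which acts in the next step, had 99.6, 91.2 and 109 FPKM in oeNC and 118, 128 and 108 FPKM in oeSTUB1, a log2 fold change of 0.24 (SE 0.10, adjusted p = 0.157) with overlapping groups. PSPH, the last step, was at 0.09 (SE 0.09, adjusted p = 0.53). The difference between PHGDH and PSAT1 in these values was not tested.

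The mitochondrial enzymes SHMT2 and MTHFD2 had log2 fold changes of -0.01 (SE 0.09, adjusted p = 0.952) and -0.24 (SE 0.14, adjusted p = 0.276) by limma. SHMT2 ranged over 36.1 to 42.6 FPKM and PSPH over 9.74 to 11.8 FPKM. MTHFD2 had 47.3, 46.7 and 64 against 44.1, 48 and 40.2 FPKM, with oeNC replicate 3 the highest. ASNS, asparagine synthetase and a classic ATF4 target, was the least expressed of the 40 genes, with 0.348, 0.384 and 0.741 FPKM in oeNC and 0.332, 0.206 and 0.335 FPKM in oeSTUB1. These values rest on 39, 43 and 88 fragments in oeNC and 37, 22 and 37 in oeSTUB1. The groups did not overlap, oeNC replicate 3 was 2.03 times the mean of the other controls, and the log2 fold change of -0.55 (SE 0.29, adjusted p = 0.245) did not pass by limma. Of the 18 ATF4-branch genes, 3 were lower without overlap (ATF3, PHGDH and ASNS) and 1 was higher (VLDLR). These counts stand against 17.3% of all genes tested lower and 21.5% higher without overlap, so the lower share was near the background.

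The transporter subunits were among the most abundant genes of the branch. SLC3A2 (CD98 heavy chain) had 268, 249 and 252 FPKM in oeNC and 213, 282 and 189 FPKM in oeSTUB1, and its partner SLC7A5 (LAT1) had 301, 278 and 254 FPKM in oeNC and 289, 243 and 234 FPKM in oeSTUB1. The groups overlapped in both, oeSTUB1 replicate 3 was the lowest in both, and oeNC replicate 3 was not raised. The log2 fold changes were -0.19 (SE 0.14, adjusted p = 0.427) and -0.12 (SE 0.11, adjusted p = 0.505) by limma. Without oeSTUB1 replicate 2, SLC3A2 was at -0.35 and passed (adjusted p = 0.00718 by limma), against a background of 26.8% of genes called in that fit.

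The lower values of the ATF4 branch went with 1 control library, oeNC replicate 3. It was the highest of the 6 libraries in 12 of 18 ATF4-branch genes (66.7%), in 3 of 22 chaperone-branch genes (13.6%, HERPUD1, XBP1 and ERN1), and in 19.1% of all genes tested. The median log2 difference of this library from the other oeNC libraries was 0.46 in the ATF4 branch, 0.01 in the chaperone branch and 0.02 over all genes. Differences over 1 were found in 4 ATF4-branch genes (22.2%), CHAC1 (2.63), DDIT3 (2.24), PPP1R15A (1.29) and SESN2 (1.26), against 1.11% of all genes and 0 chaperone-branch genes. By this difference CHAC1 and DDIT3 ranked 3 and 5 among the 15353 genes tested. The library was picked for its high ATF4-branch values, so these shares and ranks describe that choice and are no separate support for it. The exceptions in the branch were the transporters, PSAT1, PSPH, SHMT2 and VLDLR. The labels give this library to the control, so it enters the control mean wherever it is not said to be left out. It had the highest library total, 36744521 fragments, and its part in the result was not tested.

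Without oeNC replicate 3, the ATF4-branch median moved above 0. The library was singled out by its high ATF4-branch values, so a shift upward was built in. The median log2 fold change was 0.05 with 11 of 18 genes above 0, and 0 genes were called in either branch, against 6.78% of all genes in that fit. ATF3 (-0.94), PHGDH (-0.45) and ASNS (-0.27) remained below 0, and VLDLR (0.49) above it. The chaperone branch had a median of 0.12 in the same fit, with 16 of 22 genes above 0. With oeSTUB1 replicate 2 also left out, a fit chosen after seeing the data with 2 libraries a group, 6 genes were higher (HSPA5, CANX, DNAJB11, HYOU1, VLDLR and PSAT1) and 3 lower (ATF3, PHGDH and SLC3A2), against 23.7% of all genes called. HSPA5 was then at 0.21, and the ATF4-branch median was -0.07 with 11 of 18 genes below 0. When oeSTUB1 replicate 2 alone was left out, the ATF4-branch median was -0.32 with 15 of 18 genes below 0. In that fit 1 ATF4-branch gene was higher and 3 were lower, against 26.8% of all genes called.

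**Figure D5:**
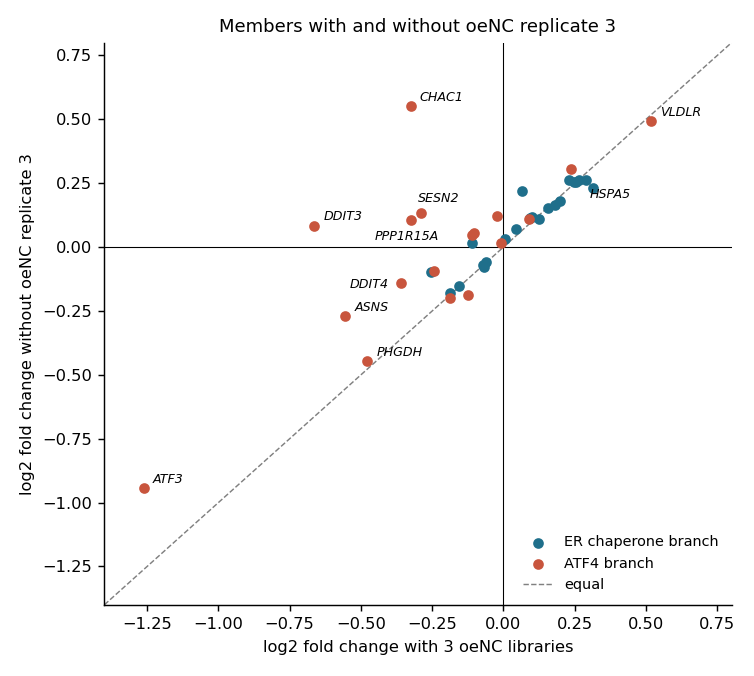
Log2 fold change of oeSTUB1 against oeNC with all 3 oeNC libraries (horizontal axis) and without oeNC replicate 3 (vertical axis) for the 40 genes, with the line of equal values dashed. Most chaperone-branch genes lie near the line, while CHAC1, DDIT3, PPP1R15A and SESN2 move from below 0 to above 0.

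Other genes of these pathways were examined as lists. Of 29 tested genes for folding and translocation into the ER, 3 were higher and 2 lower, together 17.2% of the list against 13.6% of all genes tested. TRAM1, part of the translocation channel, had 101, 104 and 88 against 187, 179 and 154 FPKM, a log2 fold change of 0.83 (SE 0.10, adjusted p = 0.00228) by limma. SRPRB, the membrane anchor of the signal recognition particle receptor, rose by 0.45, and the cochaperone DNAJC1 by 0.45 on the log2 scale. The oxidase ERO1B (-0.61) and the isomerase PDIA5 (-0.43) fell. Of 18 tested ERAD genes, SELENOS (0.42) and the ubiquitin-conjugating enzyme UBE2G2 (0.30) were higher and 0 lower (11.1%). These lists had medians of 0.18 and 0.16, beside 0.19 for the folding genes and 0.02 over all genes.

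Of 24 further ATF4 targets tested, 3 were higher and 1 lower, together 16.7%, near the share of all genes. The median log2 fold change of this list was 0.05 with 14 of 24 genes above 0, beside -0.22 for the ATF4 branch. The glycine transporter gene SLC6A9 had 0.844, 1 and 1.1 against 2.02, 1.91 and 2.45 FPKM, with a log2 fold change of 1.04 (SE 0.15, adjusted p = 0.00435) by limma, and the groups did not overlap. The factor ATF5 (0.45) and the proline synthesis enzyme ALDH18A1 (0.28) were higher as well. PCK2, the mitochondrial PEPCK, had 25, 25.5 and 30.8 against 13.2, 16.1 and 13.5 FPKM, a log2 fold change of -0.92 (SE 0.12, adjusted p = 0.00224). Of the 24 genes, 11 had their highest value in oeNC replicate 3 (45.8%), with a median log2 difference from the other controls of 0.21. Without that library 2 were higher (SLC6A9 and STC2) and 1 lower (PCK2), STC2 being named after its value was seen. Together they were 12.5% of the list, against 6.78% of all genes called in that fit.

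Among 20 cytosolic aminoacyl-tRNA synthetases, WARS1 was the 1 gene called higher (0.29), against 7.01% of all genes tested. The median log2 fold change of this list was 0.15 with 15 of 20 genes above 0, beside -0.22 for the ATF4 branch. These genes load tRNAs with amino acids, and several are known ATF4 targets. The list had 3 genes with their highest value in oeNC replicate 3 (15%), against 19.1% of all genes. Of 17 genes for the eIF2 alpha kinases, eIF2 and eIF2B, EIF2S1, the eIF2 alpha subunit, was higher (0.31) and 0 were lower (5.88%). Of 15 other ER stress sensors and effectors, CREB3 (0.48) and BAK1 (0.43) were higher and NFE2L2 (-0.48) was lower (3 of 15 in all, 20%). For both of these lists the share of all genes called was 13.6%. NFE2L2, the oxidative stress factor NRF2, had 47.3, 46.1 and 59 against 35.6, 36.2 and 36.7 FPKM, and oeNC replicate 3 was the highest there too.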

How the data were processed

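The RNA of 6 TFK1 libraries (3 oeNC, 3 oeSTUB1) was sequenced, and the authors deposited 1 table of FPKM values for 23569 genes. Per the submitters' processing notes, fastp 0.20.1, HISAT2 2.1.0, HTSeq 0.11.2, R 3.2.0, DESeq2 1.22.2 and GRCh38.p13 were used, and the annotation and the strand setting are not given in the sources used here. Groups were taken from the labels. The members and lists were chosen with earlier results of these data known.

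The test was limma (version 3.58.1, R 4.3.3), two-sided, with a variance trend, on log2(FPKM + 0.1). It took the 15353 genes whose mean FPKM reached 0.1, among them all 40 members, and p-values were adjusted by Benjamini-Hochberg over all genes tested. Members with an adjusted p under 0.05, the sensors and the branch factors are given library by library, all other members at least by their difference or range, and up to 3 genes per direction of each further list by their fold change. The lower calls among the aminoacyl-tRNA synthetases are not reported here. Whole fragments and gene lengths were recovered from the steps of the FPKM values, to within 0.001 fragments in 100% of genes, with totals of 34705001, 34663445 and 36744521 (oeNC) and 34457814, 33106564 and 34169331 (oeSTUB1). The recovered length is the smallest that gives whole fragments. It can be too short by a common divisor, and the fragments too few by the same factor. The values of 99.7% of each total lay on the listed genes. Replicates were compared by a chi-square test of fragments over genes, and every pair differed by more than sampling noise, with chi-square over degrees of freedom from 3.48 to 82.6. Same-numbered libraries did not deviate together (correlations of -0.05, -0.05 and 0.06), and no pairing was used in the main test. These correlations cannot show that the libraries were prepared without pairing, on which the labels are silent. Sequences are from RefSeq (GRCh38.p14), and promoters were matched by symbol for 37 of 40 genes. The scripts were tested on simulated data.

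Alternatives were pseudocounts of 1 and 0.01, no filter or a mean FPKM of at least 1, no variance trend, limma-voom on fragments, quantile normalization or median-ratio scaling, a block for the replicate number, lowess correction for gene length, each library left out, and a log2 fold change over 1 as a further condition. Leaving out oeNC replicate 3 and oeSTUB1 replicate 2 together was chosen after seeing the data.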

Additional observations from a re-analysis of the deposited data

How the results depend on the processing

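STUB1 was higher and called in every alternative. The 3 calls among the 40 genes were less stable. Against 1 gene higher and 2 lower, there were 2 and 0 without a filter, 3 and 1 with lowess correction for gene length, 6 and 3 without oeNC replicate 3 and oeSTUB1 replicate 2 together, and 0 and 1 with a log2 fold change over 1 required. Without a variance trend 1 gene was lower. The share of all genes called moved too, from 13.6% to 7.63% without a filter, 21.6% with the lowess correction, 23.7% without both libraries, 5.2% with the fold condition and 12.2% without a trend. In the chaperone branch, with 0 called, 1 was higher without a filter (DNAJB11), 2 with the lowess correction, 4 without both libraries, and 1 was lower after quantile normalization (PDIA6). In the ATF4 branch, with 1 higher and 2 lower, there were 2 higher without both libraries, 0 higher and 1 lower with the fold condition, 0 lower without a filter, 1 lower without a trend and 1 lower with the lowess correction. With single libraries left out, between 0 and 7 of the 40 genes were higher and between 0 and 3 lower, in the chaperone branch between 0 and 6 higher, and in the ATF4 branch between 0 and 1 higher and between 0 and 3 lower. The share of all genes called was lowest at 6.08% when oeNC replicate 2 was dropped and highest at 26.8% when oeSTUB1 replicate 2 was, the fit with the most members called as well. The cause of these changes was not tested.

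The median log2 fold change of the chaperone branch was 0.028 after quantile normalization and ranged from -0.0064 (without oeSTUB1 replicate 3) to 0.12 with single libraries left out. That of the ATF4 branch ranged from -0.32 (without oeSTUB1 replicate 2) to 0.050 (without oeNC replicate 3). With libraries left out, singly or both together, some log2 fold changes turned. Those of ATF4 and DDIT3 ranged from -0.22 to 0.046 and from -1.12 to 0.084, positive without oeNC replicate 3. EIF2AK3 ranged from -0.13 to 0.043, positive without oeSTUB1 replicate 2, ERN1 from -0.44 to 0.15, positive without both, and ATF6 from -0.023 to 0.20, negative without oeSTUB1 replicate 1 or 3. XBP1 ranged from -0.038 to 0.22, negative without oeNC replicate 1 or oeSTUB1 replicate 3, and was at -0.0023 after quantile normalization and -0.0012 with the lowess correction. None of these genes was called.

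With the replicate block, 1 gene was lower in both branches together and 1 in the ATF4 branch (ATF3), since PHGDH had an adjusted p of 0.0821, and 9.69% of all genes were called. The labels give no pairing and the numbers did not behave as pairs. ASNS (22 to 88 fragments a library) and CHAC1 (57 to 506) rest on the fewest fragments of the 40 genes.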

Other observations

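The 11375 genes whose mean reached 1 FPKM, members included, were ranked by how far oeNC replicate 3 lay above the other oeNC libraries. The genes outside the members that are named here were picked after their values were seen. DDIT3 and PPP1R15A stood among the first 10, and 4 of the 40 members among the first 50. The first place was held by EGR1, an immediate early transcription factor, with 0.395, 0.487 and 4.01 against 0.629, 0.876 and 0.961 FPKM (oeNC against oeSTUB1). TSC22D3, a glucocorticoid-induced gene, had 1.97, 2.12 and 6.22 against 2.76, 3.13 and 2.59 FPKM, and ANKRD1, a target of YAP signalling, had 1.3, 1.35 and 3.79 against 1.1, 0.861 and 0.997 FPKM. In these 3 genes the high value stood alone among the 6 libraries. JUN, an immediate early gene and ATF3 partner, had 4.09, 4.48 and 11.3 against 9.27, 8.39 and 7.32 FPKM, where the 3 oeSTUB1 libraries lay between oeNC replicate 3 and the other controls.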
